A study of Drosophila melanogaster with 5 samples.

Results

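Some nuclear genes had almost no transcript in the wild-type (WT) flight muscle of the Drosophila pupa and were on in both M1BP RNAi libraries. They were picked by level. A gene was kept if it had under 0.5 CPM (a gene's count divided by the library total and multiplied by 1000000) in each of the 3 WT libraries and at least 1 CPM in both M1BP RNAi libraries. Of 17494 genes in the counts table, 38 passed. Hsc70-2, Rpt6R and ND-B8 were then set aside because their symbols belong to the heat shock, proteasome and complex I families, which left 35 genes, 28 protein coding and 7 non-coding. Their difference between M1BP RNAi and WT is what selected them, so it is given below as a description and not as a test.

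M1BP, Motif-1 binding protein, is a zinc finger transcription factor that sits at the core promoters of many housekeeping genes, where RNA polymerase II often pauses. Tissue-restricted genes, such as those of sperm, the germline or photoreceptors, are normally kept off in muscle. Flight muscle at 48 h after puparium formation (APF) is a postmitotic syncytium, so genes for chromosome segregation are not part of the known work of the fibre itself.

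The comparison asked how transcription in developing flight muscle changes when M1BP is depleted. All pupae carried the muscle driver Mef2-GAL4. The M1BP RNAi pupae also carried UAS-M1BP RNAi, per the study the weaker of its lines, and the WT pupae carried the driver without it. Dorsolongitudinal flight muscles from 6 to 8 pupae kept at 25 °C were pooled for each polyA RNA library at 48 h APF, giving 2 M1BP RNAi libraries (replicates 2 and 3) and 3 WT libraries (replicates 1, 2 and 3). Mef2-GAL4 is also active in some neurons, and Mef2 is expressed in fat body, so the knockdown was not limited to muscle by design. Per the study, each library was made from its own RNA preparation and replicates were biological. The labels gave neither sex nor batch.

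Totals were 57514444 and 46504821 counts in M1BP RNAi replicates 2 and 3, and 41676901 to 53556469 counts in WT, so that 1 CPM stood for 41.7 to 57.5 counts. M1BP itself had 9.75 and 9.98 CPM in the M1BP RNAi libraries (mean 9.87), against 12.9, 13.6 and 11.3 CPM in WT (mean 12.6). The DESeq2 log2 fold change was -0.61 (SE 0.136). It was fitted with DESeq2 size factors and is larger than the difference in CPM. The adjusted p was 0.000104 in DESeq2 and 0.0243 in edgeR. M1BP was lower in 2 of 2 M1BP RNAi libraries, but the DESeq2 adjusted p lay between 0.0135 and 0.181 when any of the 5 libraries was left out. The 10 flight muscle markers summed to 46500 and 50626 CPM in M1BP RNAi and to 43387 to 52837 CPM in WT, high in every library. Mitochondrial genome transcripts took 10.8% and 14.6% of counts in M1BP RNAi, against 18.1%, 20.4% and 19.5% in WT. CPM placed the median tested nuclear gene 0.29 log2 units higher in M1BP RNAi, and with DESeq2 size factors this median shift was 0.02. The male-specific dosage compensation RNA lncRNA:roX1 stood at 229 and 129 CPM in M1BP RNAi and at 0.279, 101 and 18.6 CPM in WT, so the pools differed in it within WT as well as between groups, and its part in the results below was not tested.

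In WT, 8527 nuclear genes were under 0.5 CPM in all 3 libraries, or 8500 once the same symbols were left out. Of these 8500, M1BP RNAi replicate 2 had 952 at 1 CPM or more and replicate 3 had 41. The 35 genes are the overlap, 3.68% of the 952 and 85.4% of the 41. A further 917 of the 8500 reached that level in replicate 2 only, and 6 in replicate 3 only. For scale, the genes that were under 0.5 CPM in the other 2 WT libraries and at 1 CPM or more in a single WT library numbered 34, 30 and 8 for WT replicates 1, 2 and 3.

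Levels were low even when on. Per library, the median over the 35 genes was 1.84 CPM in M1BP RNAi replicate 2 and 1.68 CPM in replicate 3, against 0.172, 0.216 and 0.168 CPM in WT replicates 1, 2 and 3. Summed over the 35 genes, the libraries held 174 and 77.9 CPM in M1BP RNAi and 6.67, 7.01 and 6.46 CPM in WT. S-Lap4 and CG5089 account for most of the gap between the M1BP RNAi libraries, and without them the sums were 97.0 and 75.6 CPM in M1BP RNAi and 5.79, 6.86 and 5.94 CPM in WT. Per kilobase of exon, the scale on which genes can be set side by side, the median mean level in M1BP RNAi was 1.76 CPM per kb (0.350 to 11.9), against a median of 9.18 CPM per kb over the 7989 nuclear genes on in both M1BP RNAi libraries. On that scale the median of the 35 lay at percentile 11.9 and S-Lap4, the highest, at percentile 57.7. S-Lap4 was followed per kb by CG43182 (10.8), CG5089 (8.93), Cyp6a13 (5.77) and Bfc (5.50). The place of S-Lap4 rests on replicate 2, with 23.2 CPM per kb there and 0.570 in replicate 3, where it ranked 30 of the 35 and CG43182 (8.82) and Cyp6a13 (6.52) were highest.

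**Figure D1:**
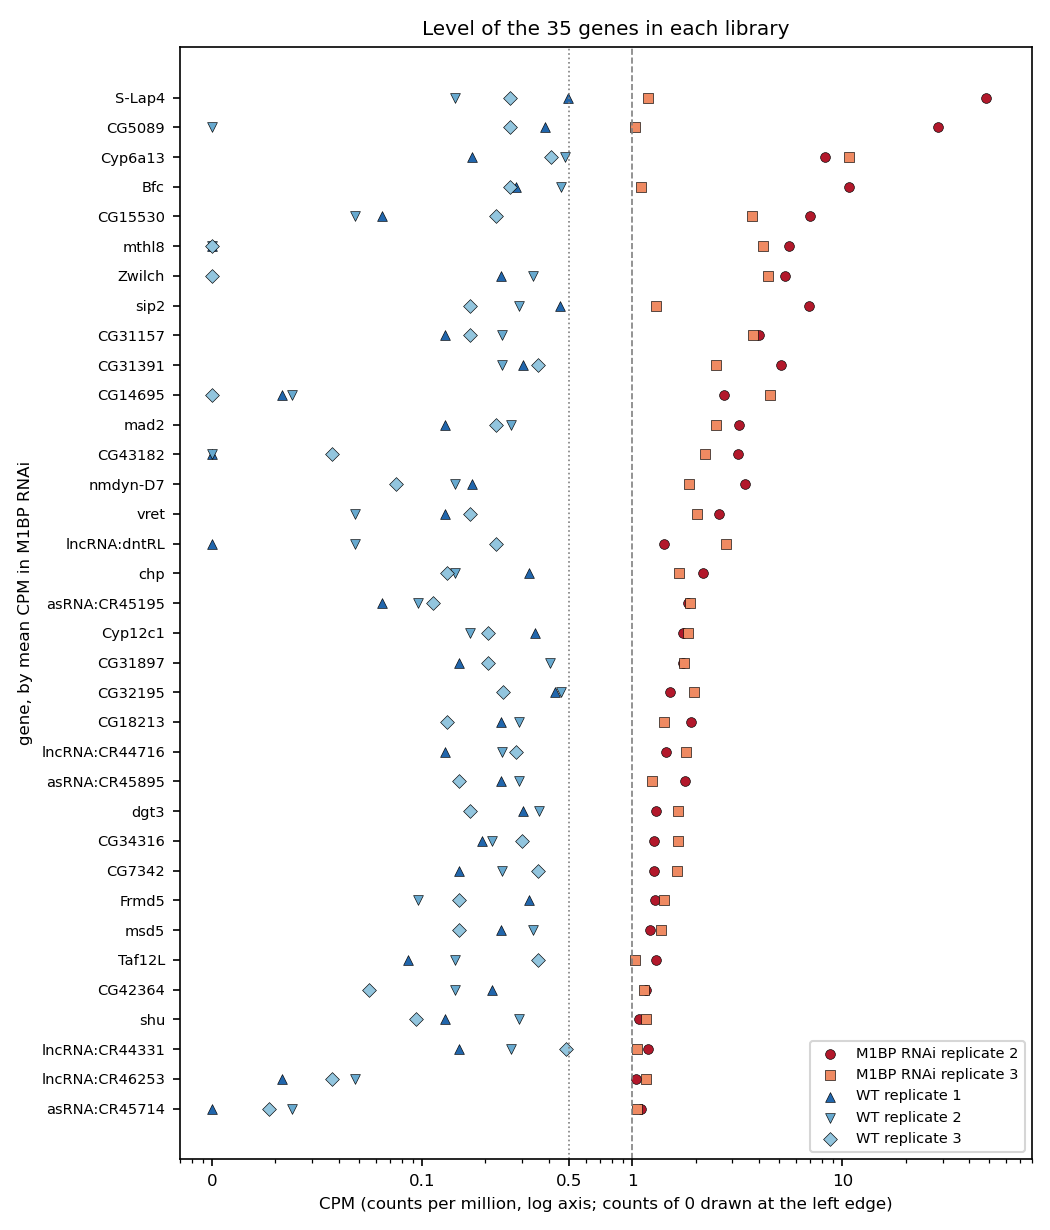
CPM of each of the 35 genes (rows, by mean CPM in M1BP RNAi) in each library, on a log axis, with counts of 0 at the left edge; circles and squares are M1BP RNAi replicates 2 and 3, triangles and diamonds WT replicates 1 to 3, and the dotted and dashed lines mark the limits of 0.5 and 1 CPM. The gap between the groups is set by the selection, and the distance between circle and square in part. That distance is wide for S-Lap4, CG5089, Bfc and sip2.

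The fitted log2 fold changes, M1BP RNAi over WT, ran between 1.59 for lncRNA:CR44331 and 10.02 for mthl8, with a median of 3.49, against 0.02 over all genes tested. At the thresholds of the study (DESeq2 adjusted p of at most 0.001 and at least 1.5-fold) 22 of the 35 were called higher, beside 3.78% of 11282 genes tested, a count that follows from the selection. WT counts were small, with a median of 29 counts summed over the 3 libraries and 52 at most. edgeR's quasi-likelihood test called 0 of the 35 at those thresholds, with 35 at an unadjusted p under 0.05 and 28 at an adjusted p of 0.05 or less. Over the 9833 genes it tested, edgeR called 4 higher at those thresholds. At an edgeR adjusted p of 0.05 or less and at least 1.5-fold, 465 of the 9833 were higher. These counts of members also follow from the selection. The DESeq2 count was lower whichever library was left out, at 12, 13 and 13 without WT replicates 1, 2 and 3. Without M1BP RNAi replicate 2 or 3, 1 M1BP RNAi library remained. The smallest log2 fold change of the 35 was then 1.55 and 1.63, a direction that the selection fixes.

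Cell division genes formed a group of 4. Zwilch is a subunit of the RZZ complex, which recruits dynein and checkpoint proteins to kinetochores, and mad2 encodes the checkpoint protein that holds back anaphase. Zwilch (3R, 31210966 to 31213376, minus strand, dm6) had 5.32 and 4.41 CPM in M1BP RNAi, against 0.236, 0.336 and 0 CPM in WT, a 25.5-fold difference of means. mad2 (3L, 5812135 to 5813093, minus strand) had 3.23 and 2.52 CPM in M1BP RNAi, against 0.129, 0.264 and 0.224 CPM in WT, 13.98-fold. The M1BP RNAi libraries were close to each other for both genes. dgt3 and msd5 encode subunits of augmin, the complex that nucleates microtubules inside the spindle. dgt3 (2R) had 1.304 and 1.66 CPM in M1BP RNAi, against 0.300, 0.360 and 0.168 CPM in WT, and msd5 (3L) had 1.22 and 1.38 CPM, against 0.236, 0.336 and 0.149 CPM. Unlike Zwilch and mad2, these subunits sat near the floor of 1 CPM and were 5.36- and 5.39-fold higher in mean CPM.

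The partners of these proteins, listed after the members were known, gave mixed values. Of 9 RZZ and checkpoint genes, 4 were called higher by DESeq2, beside 3.78% of all genes, and 0 by edgeR, with a list median log2 fold change of 0.43. Among the 4, Zwilch lay at the limit, with an adjusted p of 0.000999 in DESeq2 and 0.0570 in edgeR. Its call was lost with TMM size factors (DESeq2 adjusted p 0.00107) and with independent filtering off (0.00133). Zwilch and mad2 were selected on this difference, so that the called genes outside the selection were rod, the largest RZZ subunit, at 6.02 and 4.95 CPM in M1BP RNAi against 0.966, 1.18 and 0.859 CPM in WT (2.20 on the log2 scale, SE 0.285, adjusted p 6.96e-13 by DESeq2), and Mad1, the binding partner of Mad2, at 46.0 and 38.0 CPM against 22.6, 21.7 and 19.4 CPM (0.72, SE 0.114, DESeq2 adjusted p 1.08e-08). Zw10, the remaining RZZ subunit, had a log2 fold change of -0.00 (SE 0.237), and Bub1, BubR1, Bub3 and Mps1 were not called. Of the 8 augmin genes, msd1 alone was called higher by DESeq2, beside 3.78% of all genes, and 0 were called by edgeR. msd1 stood at 1.22 and 0.710 CPM in M1BP RNAi against 0.0858, 0.0720 and 0.0187 CPM in WT (3.80 on the log2 scale, SE 0.959, adjusted p 0.000862 by DESeq2). msd1 missed the selection because of its level in replicate 3, and its exons overlap those of msd5 by 20 bases on the opposite strand. The other 5 augmin genes, dgt2, dgt4, dgt5, dgt6 and wac, ranged from -1.08 to 1.17 in log2 fold change without a call. Among 10 cell cycle drivers, among them CycA, CycB, Cdk1, stg and polo, DESeq2 and edgeR each called 0. In that list 1 gene was lower at an unadjusted DESeq2 p under 0.05, and the list median was -0.33. These partner genes were named with their values already known.

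**Figure D2:**
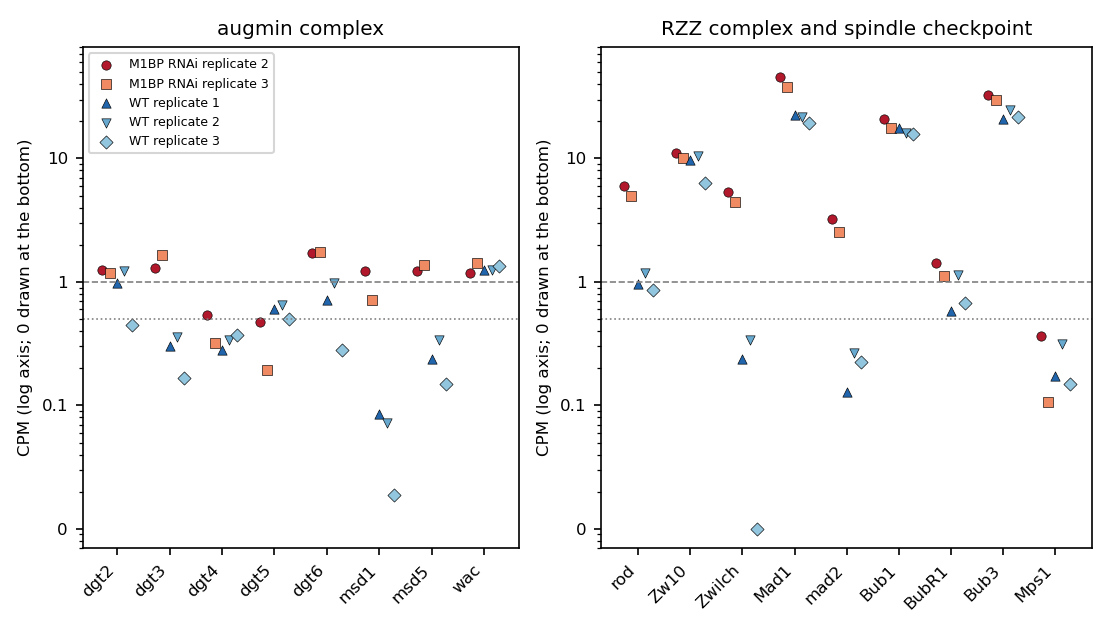
CPM (log axis, 0 at the bottom) in each library for the 8 augmin genes (left) and the 9 RZZ and spindle checkpoint genes (right), symbols by library with M1BP RNAi left of WT, dotted and dashed lines at 0.5 and 1 CPM. Zwilch, mad2, dgt3 and msd5 cross both lines. Zwilch (at the limit, adjusted p 0.000999), mad2, rod, Mad1 and msd1 were called higher by DESeq2, and dgt3 and msd5 were not. Among the genes that overlap between groups are wac, dgt2, dgt4, Zw10 and Bub1.

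Among the 35 were also 2 genes of the piRNA pathway, which silences transposons in the gonad. vret encodes a Tudor-domain protein needed for piRNA production, and shu a co-chaperone that helps load PIWI proteins. vret (3R, 22742954 to 22745581, minus strand) had 2.59 and 2.04 CPM in M1BP RNAi, against 0.129, 0.0480 and 0.168 CPM in WT, 20.2-fold, and shu (2R) had 1.08 and 1.16 CPM, against 0.129, 0.288 and 0.0934 CPM, 6.59-fold. The Tudor-domain helicase gene spn-E rose, at 3.69 and 4.47 CPM in M1BP RNAi against 0.858, 0.720 and 0.896 CPM in WT (DESeq2 adjusted p 9.38e-07), as did squ, at 74.4 and 70.3 CPM against 20.4, 18.2 and 16.6 CPM (DESeq2 adjusted p 2.46e-47). A list of 21 other piRNA pathway genes was drawn up after vret and shu were known to be members and holds both. The genes aub, piwi, AGO3, krimp and tud were on the germline list instead. Of the 15 tested among these 21, DESeq2 called 4 higher (vret, itself selected on this difference, spn-E, squ and SoYb) and 1 lower (Hen1, the small RNA methyltransferase), beside 3.78% and 2.98% of all genes, and edgeR called 0. The median log2 fold change over the 15 was 0.07. Of the germline list, vas had 0.226 and 0.237 CPM in M1BP RNAi against 0.0429, 0.0960 and 0.224 CPM in WT, piwi had 0.104 and 0.0215 CPM against 0 to 0.0429 CPM, and osk and zpg had 0 counts in all 5 libraries. krimp, a piRNA pathway Tudor-domain gene, had 3.62 and 2.09 CPM in M1BP RNAi against 0.730, 0.960 and 0.878 CPM in WT, a log2 fold change of 1.46 without a call, and tud had 636 and 664 CPM against 905, 792 and 815 CPM. AGO3 had 0.539 and 0.194 CPM in M1BP RNAi against 0.665, 0.624 and 0.467 CPM in WT (log2 fold change -0.94). For aub the values were 0.400 and 0.280 CPM against 0.236, 0.144 and 0.205 CPM (0.52), and neither was called. Of 12 germline and piRNA genes on this list, 0 were among the 35. Of the 6 tested, DESeq2 called 1 lower (tud), beside 2.98% called lower among all genes tested, and 0 higher, with 1 higher at an unadjusted p under 0.05, and edgeR called 0.

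Detoxification enzymes were represented by a pair of cytochrome P450 genes. Cyp6a13 (2R, 8570499 to 8572147, plus strand) was among the highest of the 35 in both libraries, at 8.28 and 10.8 CPM in M1BP RNAi against 0.172, 0.480 and 0.411 CPM in WT, 26.9-fold. Cyp12c1 (3L, 18684259 to 18686319, minus strand), of the mitochondrial P450 clan, had 1.74 and 1.85 CPM in M1BP RNAi against 0.343, 0.168 and 0.205 CPM in WT, 7.51-fold. Of the 22 Cyp6 genes 17 were tested, with 4 higher and 2 lower at an unadjusted DESeq2 p under 0.05. DESeq2 called 1 of the 17, Cyp6a13, beside 3.78% of all genes called higher. Cyp6a20 had 3.36 and 4.73 CPM in M1BP RNAi against 1.78, 1.56 and 1.14 CPM in WT without a call. Of 7 Cyp12 genes 3 were tested and Cyp12c1 was the 1 called. Cyp6a13 and Cyp12c1 were selected on this difference, so their calls follow from the selection. Cyp12e1 had 6.61 and 4.54 CPM against 0.751, 2.81 and 1.33 CPM, a log2 fold change of 1.52 without a call. edgeR called 0 genes of either family. Next to Cyp6a13 in the same cluster, Cyp6a14 had 0.365 and 0.129 CPM in M1BP RNAi against 0.0187 to 0.0240 CPM in WT.

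mthl8 was the 1 gene of the 35 with no count in any WT library. It encodes a receptor of the Methuselah family, G protein-coupled receptors known in the fly for links to lifespan and stress resistance, and is the gene nearest the tip of 3L in the table (22428 to 26308, plus strand). It had 321 and 195 counts in M1BP RNAi (5.58 and 4.19 CPM) and 0 counts in each WT library. Set against a floor of 3 counts over the WT group, the level was at least 235-fold higher in M1BP RNAi. Of 16 methuselah-like genes 12 were tested. DESeq2 called 1 of them, mthl8, itself selected on this difference, beside 3.78% of all genes called higher. mth, mthl1 and mthl5 had log2 fold changes of -0.44, -0.33 and -0.51 without a call. chp, which encodes chaoptin, an adhesion protein of the photoreceptor surface, had 2.17 and 1.68 CPM in M1BP RNAi against 0.322, 0.144 and 0.131 CPM in WT, 9.68-fold, and Frmd5, which encodes a FERM-domain protein, had 1.29 and 1.42 CPM against 0.322, 0.0960 and 0.149 CPM, 7.16-fold. nmdyn-D7, a nucleoside diphosphate kinase homologue, had 3.43 and 1.87 CPM in M1BP RNAi against 0.172, 0.144 and 0.0747 CPM in WT, 20.4-fold.

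The floor held in both M1BP RNAi libraries and so removed the 917 genes that were on in replicate 2 only. How close the libraries lay is therefore partly set by the selection and is given as a description. Of the 35 genes, 30 lay within 2-fold of each other in replicates 2 and 3, 5 (14.3%) were over 2-fold higher in replicate 2, and 0 were over 2-fold higher in replicate 3. Over the 7989 nuclear genes on in both, 1.79% were over 2-fold higher in replicate 2 and 1.18% in replicate 3. The median log2 ratio of replicate 2 over replicate 3 was 0.09 for the 35 and 0.11 for the 7989. The most even were CG31897 (0.986 times), CG42364 (1.02), asRNA:CR45195 (0.974), asRNA:CR45714 (1.04) and Cyp12c1 (0.940).

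S-Lap4, a leucyl aminopeptidase of the sperm tail, was the least even. It had 48.2 CPM in M1BP RNAi replicate 2 and 1.18 CPM in replicate 3, against 0.493, 0.144 and 0.261 CPM in WT, so that replicate 2 exceeded replicate 3 by 40.7 times. CG5089 had 28.7 and 1.03 CPM in M1BP RNAi replicates 2 and 3 (27.8 times), against 0.386, 0 and 0.261 CPM in WT. Bfc, a cofactor of the GATA factor Serpent in switching on the phagocytic receptor gene crq, had 10.8 and 1.10 CPM (9.86 times), against 0.279, 0.456 and 0.261 CPM in WT. sip2, named for septin interaction, had 6.97 and 1.29 CPM (5.404 times), against 0.451, 0.288 and 0.168 CPM in WT, and CG31391 had 5.11 and 2.52 CPM (2.03 times), against 0.300, 0.240 and 0.355 CPM in WT. In M1BP RNAi replicate 3 all but CG31391 of these genes were barely above the floor of 1 CPM.

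Transcripts of sperm moved with replicate 2. The 46 sperm and spermatid genes summed to 752 and 193 CPM in M1BP RNAi replicates 2 and 3, against 183, 179 and 192 CPM in WT, where bol alone gave 163 to 175 CPM. All 46 were higher in M1BP RNAi replicate 2 than in replicate 3, 43 of them over 2-fold, with a median log2 ratio of 5.30 over the 44 found in both. Of the 36 that were silent in WT by the same ceiling, 35 reached 1 CPM in replicate 2 and 1, S-Lap4, in replicate 3. DESeq2 called 8 of the 46 higher, beside 3.78% of all genes, and edgeR called 0. At an unadjusted DESeq2 p under 0.05, 40 of the 46 were higher and 1 lower. The list median log2 fold change was 5.88. The 12 Y-linked fertility genes summed to 3.96 and 0.452 CPM in M1BP RNAi and to 0.257, 0.336 and 0.448 CPM in WT, with all 12 under 1 CPM in each library. The 10 accessory gland genes summed to 0.435 and 0.0645 CPM in M1BP RNAi and to 0.0215 to 0.112 CPM in WT, 5 of them at 0 counts throughout. In bulk samples, more cells of a type and more RNA per cell cannot be told apart, and the part that such transcripts played in the 35 was not tested.

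**Figure D3:**
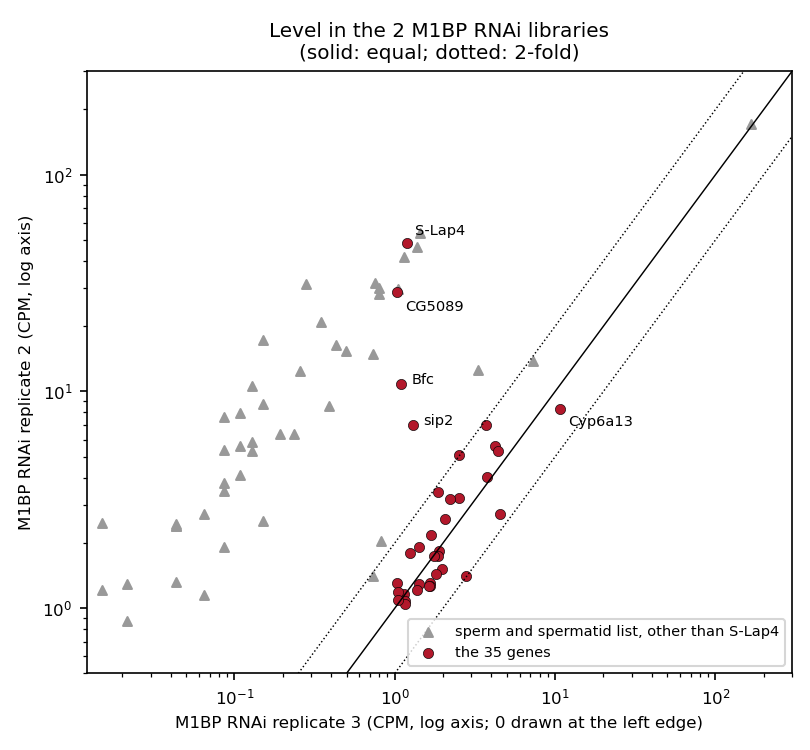
CPM in M1BP RNAi replicate 2 (vertical) against replicate 3 (horizontal), both on log axes, for the 35 genes (circles) and the other 45 genes of the sperm and spermatid list (triangles, counts of 0 at the left edge), with a solid line for equal levels and dotted lines for 2-fold. Most circles follow the solid line, whereas S-Lap4, CG5089, Bfc and sip2 lie among or toward the triangles, 5.404 to 40.7 times higher in replicate 2.

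Taf12L, the testis homologue of the TAF12 subunit of TFIID, belonged to the testis transcription list, but its M1BP RNAi libraries were even, at 1.304 and 1.03 CPM against 0.0858, 0.144 and 0.355 CPM in WT. Of the other genes on that list, can had 0.226 and 0 CPM in M1BP RNAi, nht 0.0174 and 0 CPM, and sa 0.0522 and 0 CPM. mia had 1.83 and 1.25 CPM against 0.966, 0.888 and 0.336 CPM in WT, and topi 0.748 and 0.473 CPM against 0.279, 0.144 and 0.205 CPM. Of the 11 listed genes DESeq2 and edgeR each called 0. At an unadjusted DESeq2 p under 0.05, 1 of the 6 tested was higher and 1 lower. The higher gene was Taf12L, itself selected on this difference, and the lower was achi (log2 fold change -0.58). vis had a log2 fold change of -0.51 without a call. All 11 listed genes were higher in M1BP RNAi replicate 2 than in replicate 3. Other tissue markers gave no members. Fat body markers summed to 399 and 355 CPM in M1BP RNAi against 299, 268 and 128 CPM in WT, haemocyte markers to 232 and 148 CPM against 83.7, 154 and 99.0 CPM, and neuronal markers to 50.04 and 54.3 CPM against 56.7, 48.3 and 52.4 CPM. DESeq2 and edgeR each called 0 genes of these 3 lists, with 1 neuronal gene lower at an unadjusted DESeq2 p under 0.05. Tracheal markers summed to 1006 and 1136 CPM in M1BP RNAi against 1540, 1664 and 1104 CPM in WT. Of the 4 tested, DESeq2 called 1 lower (serp), beside 2.98% of all genes, and edgeR called 0. At an unadjusted DESeq2 p under 0.05, 3 of the 4 were lower. The epidermis and tendon lists each had 2 genes lower at that level, without a call. Of the 6 gut enterocyte genes, 5 were at 0 counts in all libraries. Their part in the 35 was not tested.

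The remaining 10 protein-coding genes carry CG numbers, and no role is given for them here. CG15530 (3R, 30177877 to 30180178) had 7.01 and 3.70 CPM in M1BP RNAi against 0.0644, 0.0480 and 0.224 CPM in WT, 47.7-fold, and CG31157 (3R, 13047731 to 13049294) had 4.02 and 3.76 CPM against 0.129, 0.240 and 0.168 CPM, 21.7-fold. CG14695 (3R, 10878204 to 10879319) stood higher in replicate 3, at 2.73 and 4.54 CPM in M1BP RNAi, and had 2 counts in WT in all. CG43182 (X, 353067 to 353317), a gene of 251 exon bases, had 3.18 and 2.21 CPM in M1BP RNAi and likewise 2 counts in WT. With so few WT counts the pooled ratio of CG14695 was 251 (69.0 to 2080) and that of CG43182 was 195 (53.5 to 1618) (exact 95% intervals, which cover counting error only). CG31897, CG32195, CG18213, CG34316, CG7342 and CG42364 lay between 1.15 and 1.75 CPM on average in M1BP RNAi, against 0.138 to 0.376 CPM in WT. CG42364 is uncertain, because 169 of its exon bases are shared on the same strand with CG42362 and CG42363, which were themselves higher, and CG32195 shares 223 bases with CG7341, which had 0.0869 and 0.258 CPM in M1BP RNAi.

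Non-coding RNAs made up 7 of the 35. lncRNA:dntRL (2R, 4621118 to 4622481, minus strand) had 1.41 and 2.80 CPM in M1BP RNAi, against 0, 0.0480 and 0.224 CPM in WT, the lowest ratio of replicate 2 to replicate 3 among the 35 at 0.504. asRNA:CR45195 had 1.84 and 1.89 CPM in M1BP RNAi against 0.0644, 0.0960 and 0.112 CPM in WT, 20.6-fold. asRNA:CR45714 had 1.10 and 1.05 CPM with 2 counts in all WT libraries, a pooled ratio of 76.4 (20.7 to 638) by the same interval, and lncRNA:CR46253 had 1.04 and 1.16 CPM against 0.0215 to 0.0480 CPM, 31.0-fold. Each antisense RNA overlaps exons of its partner on the other strand: asRNA:CR45195 by 765 bases with Sodh2, asRNA:CR45895 by 549 with CG32163, and asRNA:CR45714 by 872 with Hayan. Counting appears to have used the strand, since lncRNA:CR44716, whose 419 exon bases all lie inside lncRNA:CR44717 on the other strand, had 83 and 84 counts in M1BP RNAi where lncRNA:CR44717 had 12 and 12. Sodh2 did not share the direction of asRNA:CR45195, at 10.7 and 12.9 CPM in M1BP RNAi against 16.3, 25.7 and 44.6 CPM in WT (log2 fold change -1.58, DESeq2 adjusted p 0.00777, not called).

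The change of the genes lying next to the 35 was read from the same fit. All but Hsc70-2, which passed the level rule and was set aside by symbol, were outside the selection. Counting the closest non-overlapping gene on each side and leaving out members, 52 of 65 such neighbours were tested, of which 11 (21.2%) were called higher and 4 (7.69%) lower, beside 3.78% and 2.98% of all genes. Without Hsc70-2, a choice made after seeing the data, these were 10 of 51 (19.6%) and 4 (7.84%). At the next place outward 4 of 51 (7.84%) were called higher, then 3 of 49, 4 of 46 and 2 of 49. Without M1BP RNAi replicate 2, 6 of 46 neighbours (13.0%), or 5 of 45 (11.1%) with Hsc70-2 left out as well, were called higher, beside 1.55% of all genes in that fit, and over the fits that left out another library the share of neighbours was 13.7% to 19.2%, beside 2.28% to 5.47% of all genes. edgeR called 1 neighbour higher of 49 tested, and 4 of 9833 genes in all.

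**Figure D4:**
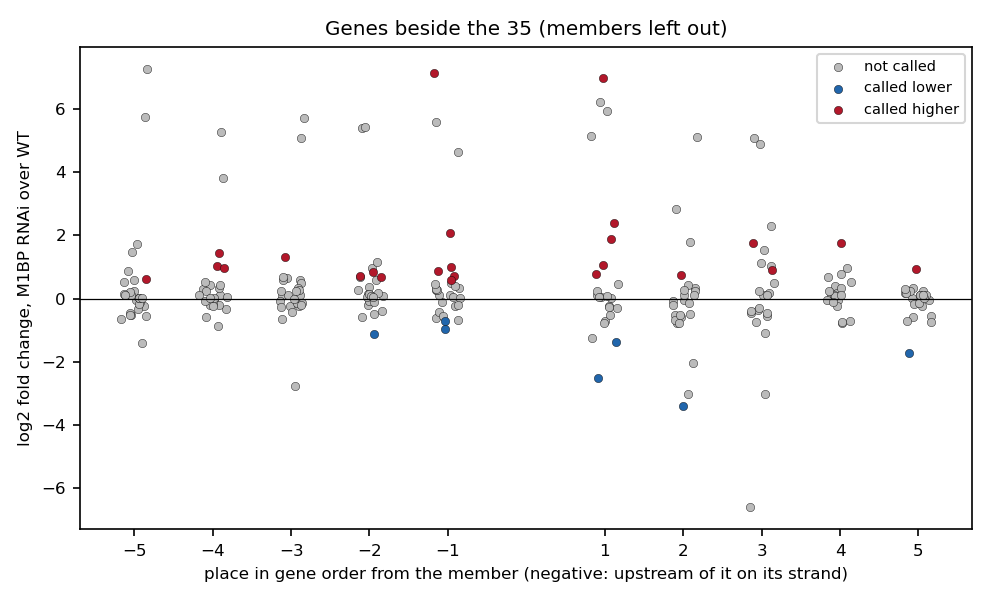
Log2 fold change (M1BP RNAi over WT, DESeq2) of tested genes at places 1 to 5 on either side of the 35, members left out, upstream places negative, with genes called higher and lower coloured. Calls in the upward direction were most frequent at the nearest place, 11 of 52, against 2 to 4 of 46 to 51 at each place further out.

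The neighbours called higher lay around 8 of the members and those called lower around 3, and they are named here with their values known. CG31157 lies between Hsc70-2, 342 bp upstream on the same strand and itself set aside by symbol, and CG7966, 103 bp downstream on the other strand. Hsc70-2 had 22.9 and 13.2 CPM in M1BP RNAi against 0.172, 0.120 and 0.0373 CPM in WT, and CG7966 had 43.6 and 42.1 CPM against 5.96, 7.87 and 6.67 CPM (2.38 on the log2 scale, SE 0.164, adjusted p 2.17e-45 by DESeq2). Around CG31391 both sides rose, with CG31467 94 bp upstream at 41.3 and 35.6 CPM in M1BP RNAi against 8.54, 5.97 and 7.99 CPM in WT (2.08, SE 0.243, DESeq2 adjusted p 8.87e-16), and pug at 63.7 and 53.4 CPM against 22.3, 22.7 and 23.96 CPM (1.07, SE 0.145, DESeq2 adjusted p 6.01e-12). lncRNA:CR44331 is 7615 bp from CG7900, which had 117 and 107 CPM in M1BP RNAi against 0.558, 0.768 and 0.878 CPM in WT and missed the WT ceiling by that margin.

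Tandem arrangements recurred. Zwilch and chp, both members, are transcribed in the same direction with Zwilch 235 bp upstream, and CG1542, 81 bp from Zwilch on the other strand, was also higher, at 47.9 and 42.1 CPM in M1BP RNAi against 20.9, 24.2 and 23.2 CPM in WT. CG14695 and asRNA:CR45195 lie 420 bp apart on the same strand, and overlap exons of Sodh2 on the other strand by 54 and 765 bases. CG31897 follows mus201, a DNA repair gene 104 bp upstream at 11.7 and 12.3 CPM in M1BP RNAi against 4.87, 5.78 and 4.54 CPM in WT, and CG34316 follows mRpS10, 68 bp upstream at 265 and 233 CPM against 150, 131 and 130 CPM. In all, 21 of the 35 had their upstream neighbour on the same strand, 15 of them within 500 bp. The matching shares over other nuclear genes were not computed, so these counts do not set the 35 apart. Of these 15 upstream genes, 12 had not themselves passed the level rule. Of the 12, 3 were called higher, beside 3.78% of all genes tested.

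Neighbours could also fall. vret sits beside Dcr-1, the microRNA-processing ribonuclease, which had 4.66 and 4.86 CPM in M1BP RNAi against 21.0, 24.8 and 21.2 CPM in WT (-2.49 on the log2 scale, SE 0.153, adjusted p 5.73e-57 by DESeq2), and beside HP1c, a heterochromatin protein 1 family gene 38 bp away on the other strand, at 7.79 and 6.28 CPM against 10.8, 12.3 and 11.2 CPM (-0.97, SE 0.166). vn, 244 bp upstream of mad2, was at 22.7 and 20.7 CPM against 29.6, 29.1 and 29.1 CPM (-0.70, SE 0.117), and CG5065 next to CG5089 at 6.69 and 11.1 CPM against 19.0, 18.6 and 19.98 CPM (-1.36, SE 0.309). The genes following Bfc, CG9130 and CG9133, shared its split between the M1BP RNAi libraries, with CG9130 at 23.0 CPM in replicate 2 and 0.968 CPM in replicate 3, against 0.730, 0 and 0.0934 CPM in WT. Likewise S-Lap3, the nearest upstream gene to S-Lap4, had 29.9 and 0.796 CPM in M1BP RNAi, against 0.558, 0.0240 and 0.187 CPM in WT.

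In position and structure the 35 were described against other nuclear genes. They lay on 3R (13), 3L (9), 2R (6), 2L (5) and X (2), with 0 on the Y or the fourth chromosome. The X share was 5.71%, against 13.1% of the other WT-silent nuclear genes and 15% of all nuclear genes, and rests on 2 genes, CG43182 and asRNA:CR45714. Single-exon genes made up 10 of the 28 protein-coding members (35.7%), against 24.5% of the other WT-silent and 13.0% of all nuclear coding genes. A gene on either strand lay within 500 bp of 31 of the 35 (88.6%), against 73.7% of the other WT-silent and 82.1% of all nuclear genes. The median exon length of the coding members was 1757 bases, close to the 1734 bases of all nuclear coding genes and above the 1147 bases of the other WT-silent ones.

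The opposite pattern, under 0.5 CPM in both M1BP RNAi libraries and at least 1 CPM in all 3 WT libraries, was met by 3 genes. resilin, which encodes the elastic protein of cuticle, had 0.243 and 0.344 CPM in M1BP RNAi against 4.10, 1.78 and 2.00 CPM in WT. dati, a zinc finger gene of the fourth chromosome, had 0.139 and 0.151 CPM against 1.70, 3.02 and 2.00 CPM, and the potassium channel gene Task6 had 0.348 and 0.366 CPM against 1.14, 1.344 and 1.92 CPM. All 3 were called lower, a result that their selection fixes in the same way.

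Members just inside the WT ceiling were S-Lap4, lncRNA:CR44331 and Cyp6a13, with their highest WT library at 0.493, 0.485 and 0.480 CPM, and those just outside were asRNA:CR44960, CG42395 and lncRNA:CR45360, each at 0.504 CPM. At the floor, CG5089, Taf12L and lncRNA:CR46253 were just inside, with 1.03, 1.03 and 1.04 CPM in their lower M1BP RNAi library, and CG18754, CG8526 and CG42633 just outside, with 0.989, 0.989 and 0.968 CPM. CG42395, at 3.95 and 3.61 CPM in M1BP RNAi, missed by 1 count in a WT library. Where genes sit this close to a limit, membership can turn on a few counts.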

How the data were processed

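PolyA RNA from flight muscle was sequenced with a stranded kit. Exon counts per gene, as whole numbers, were deposited by the authors, made from uniquely aligned reads on dm6, per the file headers, with featureCounts (Subread 2.0.3), per the submitters' processing notes. The aligner, annotation release and strand setting are not given in the sources used here. Of 52 groups of genes with identical exons on 1 strand, 52 had equal counts, so reads over overlapping genes were counted for each. Columns were matched to samples by title, and 0 count columns were left unmapped. A further deposited table holds the authors' own comparison (mean, fold change and p-value per gene) and was not used.

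CPM used the total over all 17494 genes. All genes were fitted in R 4.3.3 with the Wald test of DESeq2 1.42.0, default settings, 5 libraries and no covariate, and p-values were adjusted over all genes tested by Benjamini-Hochberg. The thresholds are those of the study. edgeR 4.0.16 (quasi-likelihood, TMM, filterByExpr) was the alternative, beside other scalings, filters, limits, a replicate block and each library left out. The fit was tested on simulated data. Gene type, exons and neighbours came from the supplied annotation, in which 17358 of the identifiers were found, 17230 at an unchanged position. Promoter and protein sequences were not analysed here.

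The members and gene lists were chosen with earlier results of these data known, and the augmin, checkpoint, added piRNA, P450, methuselah-like and cell cycle lists after the members were known. Named by rule were M1BP, lncRNA:roX1, the 15 members with the highest mean CPM in M1BP RNAi, the 5 with the largest and the 5 with the smallest log2 ratio between the M1BP RNAi libraries, members of the gene lists, and the 3 genes on each side of each limit. Any other gene was named after its values were seen. Intervals and floors cover counting error only.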

Additional observations from a re-analysis of the deposited data

How the results depend on the processing

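The 35 genes depend on the limits: a WT ceiling of 0.25 CPM gave 12, a ceiling of 1 CPM 139, and a floor of 2 CPM 10. TMM scaling kept 28, scaling to nuclear counts gave 35 (28 shared) and CPM per kb 38 (18 shared). Leaving out a library gave 41 to 952, the highest without M1BP RNAi replicate 3. The opposite set of 3 became 1, 23, 0 and 5 with the ceiling at 0.25 or 1 CPM, the floor at 2 CPM and nuclear scaling, and 5 to 16 with a library left out. The 22 members called higher became 0 with edgeR, 34 at an adjusted p of 0.05, and 8 to 13 with a library left out. The 762 calls over all genes became 8, 1799 and 319 to 937. Where 1 M1BP RNAi library remained, it was assumed to vary like WT. The median log2 ratio of M1BP RNAi replicate 2 over replicate 3 was 0.0308 with nuclear scaling, -0.0225 with TMM, a change of sign, and 0.35 at a floor of 2 CPM. Over 420 values of single members, 295 stayed on the same side of the threshold, 112 lost the call and 13 gained it. The causes were not tested.

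The groups share replicate numbers 2 and 3, but the labels do not say what a number marks, and deviations of same-numbered libraries correlated at -0.13 over 10501 genes. With the replicate number as a block, 7 of the 35 and 307 genes in all were called. With the pairing crossed, an alternative added after seeing the data, 8 of the 35 and 396 were called.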
